A study of Mus musculus with 4 samples.

Results

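Translation factors are the proteins that load mRNA onto ribosomes, drive the ribosome along the coding sequence and release the finished chain. The genes described here are the autosomal mouse genes of the initiation factor families Eif1 to Eif6, with the eIF2 kinases and the eIF4E-binding repressors, the elongation factor families Eef1 and Eef2, and Etf1, Gspt1, Abce1, Pabpc1, Pabpc4 and Denr. They were chosen by symbol from the RefSeq annotation, without pseudogenes, by a rule that uses no measured value. The table held 20716 genes, of which 74 were members, and 51 of them passed a filter of a mean normalised count of at least 25 over the 4 libraries. The data were ribosome footprints, the stretches of mRNA that ribosomes shield from nuclease, so a count follows both how much mRNA is present and how densely ribosomes sit on it. There was 1 library each from wild-type (WT) and Mettl3 knockout (KO) embryonic stem cells (ESCs) and from WT and KO embryoid bodies (EBs), aggregates of differentiating cells, all of strain C57BL/6. METTL3 is the enzyme that deposits N6-methyladenosine on mRNA. The ESCs were held naive in N2B27 medium without serum, with LIF, the GSK3 inhibitor CHIR99021 and the MEK inhibitor PD0325901. The EBs grew with serum, and the labels give day 8 to day 21 for EBs without saying which day each library came from. With 1 library per group nothing had a replicate check: the knockout, the cell line and the library cannot be told apart, and no p-value is given for any pair of libraries.

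In eukaryotes initiation begins with eIF2, which carries the initiator tRNA and is recharged by its exchange factor eIF2B, and with the large scaffold eIF3, both on the small ribosomal subunit. The eIF4 factors bring in the capped mRNA, eIF1 and eIF1A keep the scanning ribosome from starting at a wrong codon, and eIF5B joins the large subunit. Elongation factors eEF1A and eEF2 then deliver aminoacyl-tRNA and move the ribosome, and eRF1, eRF3 and ABCE1 end the round. Phosphorylation of eIF2 by stress kinases and sequestration of eIF4E by its binding proteins are the main brakes on this machinery, and many of its mRNAs carry a pyrimidine tract at the start (a TOP motif) through which mTOR signalling sets their translation.

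A footprint counts for a gene only if it has a single place in the genome, and many of these genes have near-copies. The first 28 bases of the coding sequence, about the length of a footprint, show this for 2 pairs of close relatives. They are from RefSeq on GRCm38.p6, with the start codon in capitals.
Eif1 (chr11:100320130-100320157, + strand): ATGtccgctatccagaacctccactctt
Eif1b (chr9:120492811-120492838, + strand): ATGtccactatccagaacctccaatctt
Eef1a1 (chr9:78480627-78480654, − strand): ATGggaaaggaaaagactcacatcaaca
Eef1a2 (chr2:181155379-181155406, − strand): ATGggcaaggagaagacacacatcaaca
The Eif1 stretch occurred at 12 places on the chromosomes and the Eif1b stretch, which differs from it at 2 bases, at 1 place. The Eef1a1 stretch occurred at 6 places and the Eef1a2 stretch, with 3 bases different, at 1. Over the whole coding sequence 100% of the 28-base windows of Eif1 had a copy elsewhere, against 2.22% for Eif1b, 89.6% for Eef1a1 and 0.220% for Eef1a2. Of the 51 members that passed, 30 had under 10% of their windows copied, 11 had 10 to 50% and 10 had over 50%. By this measure most windows of the last group have a copy. Eif1 had reads in every library although all its windows are copied. The 28-base windows thus do not define exactly which reads were counted.

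Members listed with several coding sequences were often without reads, and whether their shared reads were counted as ambiguous was not tested. Of 19 members with 2 or more listed sequences 4 passed the filter and 12 had no read in any library, against 4 without a read among the 55 members with 1. The 16 members at 0 throughout were Eif5, Eif3j1, Eif3j2, Eif3k, Eif4a2, Eif4e1b, Eif4g1, Eif4g2, Eif4g3, Pabpc4, Eif4enif1, Eif5a, Eef1akmt4, its readthrough gene with Ece2, Eef2k and Gspt1. These include the eIF4G scaffolds of the cap complex, the GTPase eRF3a (Gspt1) and the eEF2 kinase, so nothing can be said of them here. Another 7 had reads and fell under the filter: Eif2d, Eif4a1, Eif4e2, Eif4e3, Eif4a3l1, Eef1a2 and Eef1akmt3. The nearest members inside the filter were Eif2b4 (mean 25.6) and Eif2ak4 (26.5), and the nearest outside were Eif2d (23.8) and Eif4e2 (23.6). Every count below is out of the 51 that passed, or of the members of a class among them.

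Genes took 8570204 and 11455539 reads in WT and KO ESCs and 4234361 and 4075850 reads in WT and KO EBs, and the members held 1.64%, 1.39%, 1.42% and 1.34% of them. Where 4 values follow each other below, they are in this order, and are normalised counts unless another unit is named. Mettl3 itself was at 563, 298, 429 and 327, so the libraries labelled KO were below the WT library of their stage and not at 0. The libraries differed in more than genotype and stage. The summed count of 10 visceral endoderm markers was 203 and 246 in WT and KO ESCs and 46278 and 1709 in WT and KO EBs, and that of 6 fibroblast and matrix markers was 398, 1959, 1163 and 7716. The summed count of 10 pluripotency markers was 31803, 22257, 16432 and 28477, with 1 marker at 0 in each library, so the KO EB library held more footprints of these than the WT EB library. Neural markers (4 genes) summed to between 703 and 1899, trophoblast markers (4) to between 93.4 and 597, heart and mesoderm markers (8) to between 115 and 605, and blood and endothelium markers (6) to between 43.6 and 163. In each library 1 neural, 1 trophoblast, 1 fibroblast and matrix and 3 blood and endothelium markers had no read. Of the heart and mesoderm markers 2, 3, 3 and 3 had none in the order above. A low sum thus does not show that a cell type was absent. Y-linked genes differed too, with 2, 396, 1 and 0 reads of Kdm5d in the order above. In such mixed aggregates fewer cells of a type and less RNA per cell cannot be told apart, and the part that cell types or cell lines took in the results below was not tested.

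Translation factors were among the more densely read genes. Levels were set between genes as normalised count per kilobase of coding windows without a copy, over the 42 members with 1 listed sequence and at least 200 such windows. On that scale the median member stood at 2362 and 1778 in WT and KO ESCs and at 2007 and 1435 in WT and KO EBs, and the median of 8659 genes at 246, 268, 260.4 and 243. Above the median gene lay 37, 37, 37 and 38 of the 42 members. Eef1a1 and Eef1g, with 89.6% and 95.9% of their windows copied, were not among the 42, so they were not ranked. Of the 42, Eef2 (NM_007907, chr10:81176631-81182509), the translocase that moves the ribosome by a codon, was the most densely read in every library, at 8054, 6084, 6457 and 7819 per kilobase. Eef1b2, the nucleotide exchange subunit for eEF1A, followed in WT ESCs at 7133, and the repressor Eif4ebp1 came next at 5487. At the lower end in WT ESCs were Eif2ak3 (137), Eif2ak2 (155), Eef1aknmt (159), Eif4ebp3 (176), Eif5a2 (224), Eef1akmt2 (264) and Eif2ak1 (374). The Eif2ak genes encode eIF2 kinases, and Eef1aknmt and Eef1akmt2 encode enzymes that modify eEF1A. Regulators stood at both ends of this order, with Eif4ebp1 near the top and the kinases near the bottom.

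The 11 eIF3 subunits with reads gave a check on these levels, since the proteins work in 1 complex. Per kilobase of whole coding sequence they spread 3.47-fold in WT ESCs, from 957.5 for Eif3m to 3326 for Eif3l. Per kilobase of windows without a copy the spread was 1.74-fold, from 2112 for Eif3b to 3682 for Eif3i. The coefficient of variation over the subunits went from 35.7% to 18.1% in WT ESCs, from 35.4% to 13.7% in KO ESCs, from 33.0% to 14.8% in WT EBs and from 43.5% to 24.1% in KO EBs. The 3 subunits lowest per kilobase of whole sequence, Eif3h, Eif3e and Eif3m, were the 3 with the largest copied share (48.6%, 53.9% and 65.0%). In KO EBs Eif3e, Eif3a and Eif3m were the least dense even without copied windows, at 1352, 1421 and 1582, while Eif3l stood at 3025. Of the eIF2B exchange factor, 3 subunits with 1 listed sequence (Eif2b1, Eif2b2 and Eif2b5) lay within 1.67-fold of each other per coding kilobase in WT ESCs and within 1.08-fold in WT EBs.

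**Figure D1:**
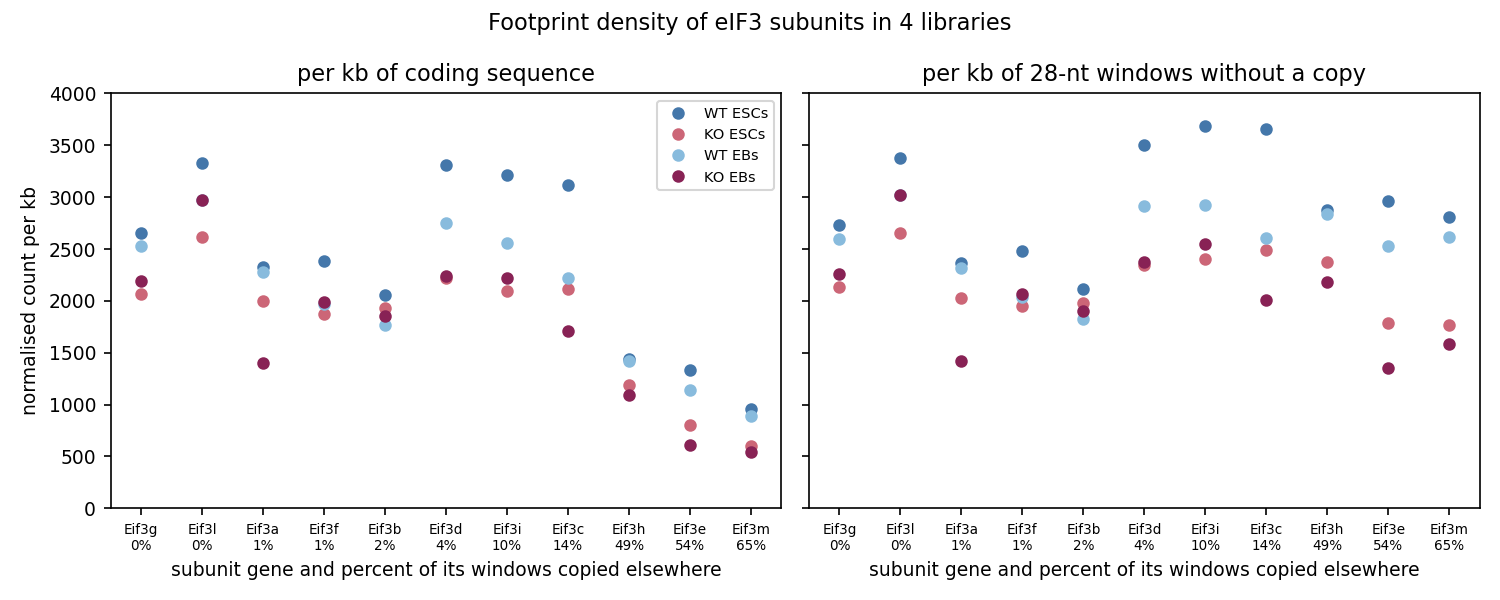
Normalised footprint count per kilobase for each of 11 eIF3 subunits in the 4 libraries, over the whole coding sequence (left) and over the 28-base windows without a copy elsewhere (right); each point is 1 library and subunits are ordered by copied share. The fall from left to right in the left panel, down to Eif3m, is much smaller in the right panel, where the subunits of WT ESCs lie between 2112 and 3682.

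In ESCs most translation factors had fewer footprints in the KO library, by modest factors. The median log2 fold of KO against WT (on values plus 1, as all log2 folds here) was −0.35, against −0.0044 over the 9670 genes tested. Of the 51 members 40 lay below 0, where 50.3% of all genes tested did. By the limit of 2-fold 1 member was higher and 0 were lower, where 10.6% and 4.42% of all genes were. At 1.5-fold 2 members were higher and 8 lower, beside 20.5% and 13.4% of genes. Fold sizes below are ratios of reads corrected for library scale, with a 95% interval that covers counting error only. That interval lay below 1 for 35 members, above 1 for 5 and held 1 for 11. Intervals were not counted over all genes, here or in the comparisons below. Most members are more densely read than the median gene, and more reads give narrower intervals, so these counts have no background to be set beside. The deposited scaling mattered for the lower limit. With every library brought to the same total of gene reads the median of all genes moved by 0.13. Under that scaling 3 members were 1.5-fold higher and 2 lower. Shares of all genes past a limit are given for the deposited scaling only, here and below.

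The eIF3 scaffold made up the largest class. All 11 measured subunits had fewer footprints in KO than in WT ESCs, with intervals below 1 for each and a class median of −0.36. Scaled to equal totals Eif3b turned to above 0 and the other 10 stayed below. Eif3e (NM_008388, chr15:43250040-43282736), a peripheral subunit, stood at 1790.2 and 1079 in WT and KO ESCs and at 1529 and 816 in WT and KO EBs. It was 1.66-fold lower (95% interval 1.56 to 1.76) in KO ESCs and 1.87-fold lower (1.68 to 2.08) in KO EBs, and both KO libraries lay under both WT libraries. Eif3a (NM_010123, chr19:60761116-60790693), the largest core subunit, was at 9394, 8046, 9191 and 5644, which is 1.17-fold lower (1.14 to 1.20) in KO ESCs. Eif3l, an outer subunit of the complex, was at 5638, 4436, 5042 and 5045, 1.27-fold lower (1.23 to 1.31) in KO ESCs. The subunits did not share 1 fold: in ESCs they ran from 1.07-fold lower for Eif3b to 1.66-fold lower for Eif3e, and the intervals of these 2 were apart.

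The genes placed in the start codon class lay on both sides of 0 in ESCs (class median −0.10, 4 of 6 below 0). Scaled to equal totals the class median turned to 0.023, with 3 of 6 below 0. Eif1a, the autosomal gene for eIF1A, was at 859, 1130.4, 828 and 1137 and was 1.32-fold higher (1.22 to 1.42) in KO ESCs. Eif1ad (NM_027236, chr19:5366813-5371518), a gene related to eIF1A, was at 441, 619, 254 and 249 and was 1.40-fold higher (1.27 to 1.56). Denr, whose product acts with MCTS1 in reinitiation and recycling, lay the other way at 927, 759, 669 and 418, 1.22-fold lower (1.13 to 1.32). The joining factors Eif5b and Eif6 were 1.09-fold lower (1.05 to 1.14) and 1.34-fold lower (1.26 to 1.43). Eif5b is the GTPase that brings in the large subunit, and Eif6 keeps free large subunits from joining too early.

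Of eIF2 and its exchange factor 6 of 7 measured genes lay below 0 in KO ESCs, with a class median of −0.38. Eif2s2, the beta subunit of eIF2, was at 1668, 1079.7, 1429 and 1399 and 1.54-fold lower (1.45 to 1.64), and Eif2s1, the alpha subunit that stress kinases phosphorylate, was 1.46-fold lower (1.37 to 1.57). Both have much of their sequence copied elsewhere (85.6% and 60.9%). Eif2b5, the catalytic subunit of eIF2B, was at 3609.9, 2948, 2034 and 2254, 1.22-fold lower (1.18 to 1.27). The 4 kinases stood apart from their target in direction: all 4 lay above 0, with a class median of 0.14, though 1 turned below 0 with TMM factors, the trimmed mean scaling of edgeR. Only Eif2ak3 (PERK, the kinase of the endoplasmic reticulum) had an interval above 1, at 455, 511, 694 and 831, 1.12-fold higher (1.01 to 1.25). The other kinases are Eif2ak1 (HRI, which senses haem), Eif2ak2 (PKR, which binds double-stranded RNA) and Eif2ak4 (GCN2, which senses uncharged tRNA), and their intervals held 1.

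The cap-binding and poly(A)-binding genes that could be measured, Eif4e, Eif4b, Eif4h and Pabpc1, were all lower in KO ESCs, with a class median of −0.38 and all 4 intervals below 1. Eif4e, the cap-binding protein, was at 202, 147, 187 and 104, with 87.6% of its windows copied. Eif4b, a cofactor of the eIF4A helicase, was 1.32-fold lower (1.27 to 1.38). The 3 repressors that bind eIF4E also lay below 0, of which Eif4ebp1 was 1.19-fold lower (1.12 to 1.27), and the helicase Eif4a3, a part of the exon junction complex, was 1.38-fold lower (1.30 to 1.46).

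Elongation and termination factors had the lowest class medians in KO ESCs, −0.52 for 7 elongation genes and −0.55 for the 2 of termination and recycling. Eef2 was at 13941, 10531, 11178 and 13534 and was 1.32-fold lower (1.30 to 1.35) in KO ESCs. Eef1b2 was at 3431, 2267, 2771 and 2494, 1.51-fold lower (1.45 to 1.58), and Eef1e1, a small protein of the multi-tRNA synthetase complex that is named with the elongation factors, was at 1432, 937, 1474 and 821, 1.53-fold lower (1.43 to 1.63). Etf1, the release factor eRF1 that reads stop codons, was at 3874, 2479, 3313 and 1864, 1.56-fold lower (1.5 to 1.63). Abce1 (NM_015751, chr8:79683442-79711740), the ATPase that splits ribosomes after release, was at 3018, 2187, 2682 and 1418, 1.38-fold lower (1.32 to 1.44). The exception was Eef1d, an exchange subunit listed with 8 coding sequences, which rests on 17, 92, 9 and 31 reads in the 4 libraries and was 3.71-fold higher (2.20 to 6.64). It was the 1 member past 2-fold in this comparison. Among the enzymes that modify elongation factors, Eef1akmt2, a lysine methyltransferase of eEF1A, was 1.80-fold higher (1.55 to 2.10), at 179.8, 324, 228 and 278, while Eef2kmt, which methylates eEF2, was at 567, 574, 574 and 584 with little between any 2 libraries. Eef1aknmt, which methylates the amino terminus of eEF1A, had the lowest fold of these enzymes in KO ESCs, 1.21-fold lower (1.06 to 1.38), at 330, 273, 369 and 305.

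**Figure D2:**
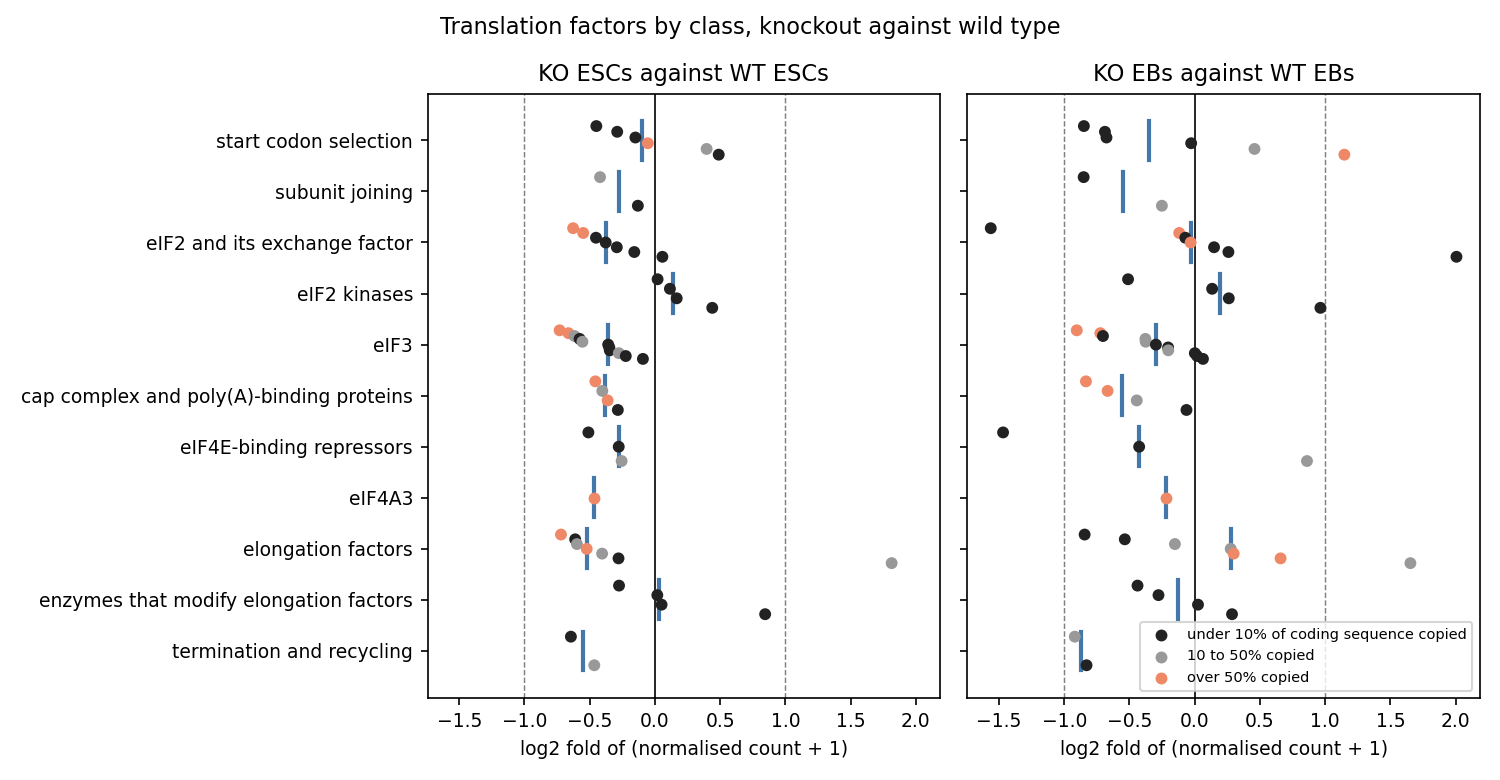
Log2 fold of KO against WT in ESCs (left) and EBs (right) for the 51 translation factors that passed the filter, by class; each point is a gene, shaded by the share of its coding sequence copied elsewhere, blue bars are class medians and dashed lines mark 2-fold. In ESCs 40 of 51 points lie below 0, and in EBs the classes spread wider, from −1.56 (Eif2b3) to 2.01 (Eif2b4).

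In EBs counting intervals of KO against WT lay below 1 for 2 termination genes, 2 joining genes and 3 of 4 cap-complex genes. They lay above 1 for 4 of 7 elongation factors, among them Eef2, Eef1a1 and Eef1g, and below 1 for 2. The member median was −0.20, against −0.067 over all genes, and 33 of 51 lay below 0, beside 53.5% of all genes. By the limit of 2-fold 3 members were higher and 2 lower, beside 15.2% and 12.2% of genes, and at 1.5-fold 6 were higher and 14 lower, beside 24.6% and 25.1%. Intervals lay below 1 for 27 members, above 1 for 11 and held 1 for 13. Scaled to equal totals the all-gene median moved by 0.12, 29 of 51 lay below 0, and 6 were 1.5-fold higher and 11 lower. No share of all genes is given for this scaling. Visceral endoderm markers were far lower in the KO EB library, from 46278 to 1709 as given above, and their part in these differences was not tested.

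The release factor Etf1 was 1.78-fold lower (1.66 to 1.91) in KO EBs and Abce1 1.89-fold lower (1.75 to 2.05), so both measured genes of the end of translation were below WT at both stages. Eif5b, at 3328, 3040.1, 3332 and 1846, was 1.80-fold lower (1.68 to 1.94), with an interval apart from that in ESCs. Eif2a, an initiation factor that can bring initiator tRNA without eIF2, was at 1924, 1409, 1730 and 1073, 1.61-fold lower (1.47 to 1.77). Denr was 1.60-fold lower (1.37 to 1.87) and Eif1b 1.81-fold lower (1.43 to 2.29), at 181, 163, 310.1 and 172. All 4 were placed in the start codon class or the joining class, which hold genes of differing roles. Each had its lowest or next-lowest level in KO EBs. The start codon class did not move as 1: 4 of 6 lay below 0 in KO against WT EBs, and 3 of 6 with equal totals. Eif1 and Eif1a lay above 0 under each scaling. Pabpc1, the main cytoplasmic poly(A)-binding protein, was at 2584, 2010, 2386 and 1502 and 1.59-fold lower (1.47 to 1.72). Eif4e was 1.79-fold lower (1.32 to 2.44). Eif4h, the fourth measured gene of the cap class, lay at −0.063 on the log2 scale and turned to above 0 under equal totals and under TMM.

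The eIF3 subunits divided in EBs. Below 0 were 8 of 11, all with intervals below 1, led by Eif3e, Eif3m at 1.65-fold lower (1.46 to 1.88) and Eif3a at 1.63-fold lower (1.56 to 1.70). Eif3b, Eif3f and Eif3l were level between the genotypes, with ratios of 1.04 (0.992 to 1.10), 1.01 (0.940 to 1.09) and 1.00 (0.953 to 1.05), under each scaling above 0. Eif3a and Eif3b both belong to the core of the complex, and of these Eif3a was lower while Eif3b was level.

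Elongation factors lay the other way, with a class median of 0.28 and 4 of 7 genes above 0 under each scaling. Eef2 was 1.21-fold higher (1.17 to 1.25) in KO EBs, Eef1a1, the aminoacyl-tRNA carrier, 1.23-fold higher (1.14 to 1.32), and Eef1g, a structural subunit of the exchange complex, 1.58-fold higher (1.34 to 1.87). Eef1a1 was at 2947, 2051, 1999.6 and 2459.9 and Eef1g at 527, 319.5, 360 and 569, and the copied shares are 89.6% for Eef1a1, 95.9% for Eef1g and 32.1% for Eef2. All 3 were thus lower in KO than WT among ESCs and higher among EBs. Eef1e1 did not follow them and was 1.80-fold lower (1.62 to 2.00). Eef1d, on its few reads, was 3.30-fold higher (1.53 to 7.88), and Eef1b2 1.11-fold lower (1.04 to 1.19).

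The repressors of eIF4E parted in the same comparison. Eif4ebp1 (NM_007918, chr8:27260327-27275656), which mTOR phosphorylation releases from eIF4E, was at 1448 and 1214 in WT and KO ESCs and at 997 and 1812 in WT and KO EBs, so KO EBs were the highest library and WT EBs the lowest. It was 1.82-fold higher (1.65 to 2.00) in KO EBs. Eif4ebp2 was at 451, 372, 439.5 and 327, 1.34-fold lower (1.12 to 1.61). Eif4ebp3 was at 49.0, 34.1, 39.0 and 13.4, 2.90-fold lower (1.31 to 7.06) from 25 against 9 reads. Of the kinases Eif2ak3 was 1.20-fold higher (1.06 to 1.36) and Eif2ak2 1.43-fold lower (1.05 to 1.95).

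All 5 members past 2-fold in EBs rest on few reads, at most 199 in a library. Eif2b3, the gamma subunit of eIF2B, had 187, 199, 106 and 37 reads and was 2.99-fold lower (2.04 to 4.48), and Eif2b4, the delta subunit, had 44, 49, 5 and 23 and was 4.41-fold higher (1.64 to 14.8). Both are listed with more than 1 coding sequence, 2 and 3. Eef1d and Eif4ebp3 are given above. Eif1, the partner of eIF1A in start codon choice, had 52, 73, 23 and 54 reads and was 2.25-fold higher (1.36 to 3.84), with every window of it copied elsewhere. Eif2ak4, listed with 2 sequences, was at 24.9, 34.1, 15.6 and 31.3, and its ratio of 2.01 (0.907 to 4.78) held 1.

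**Figure D3:**
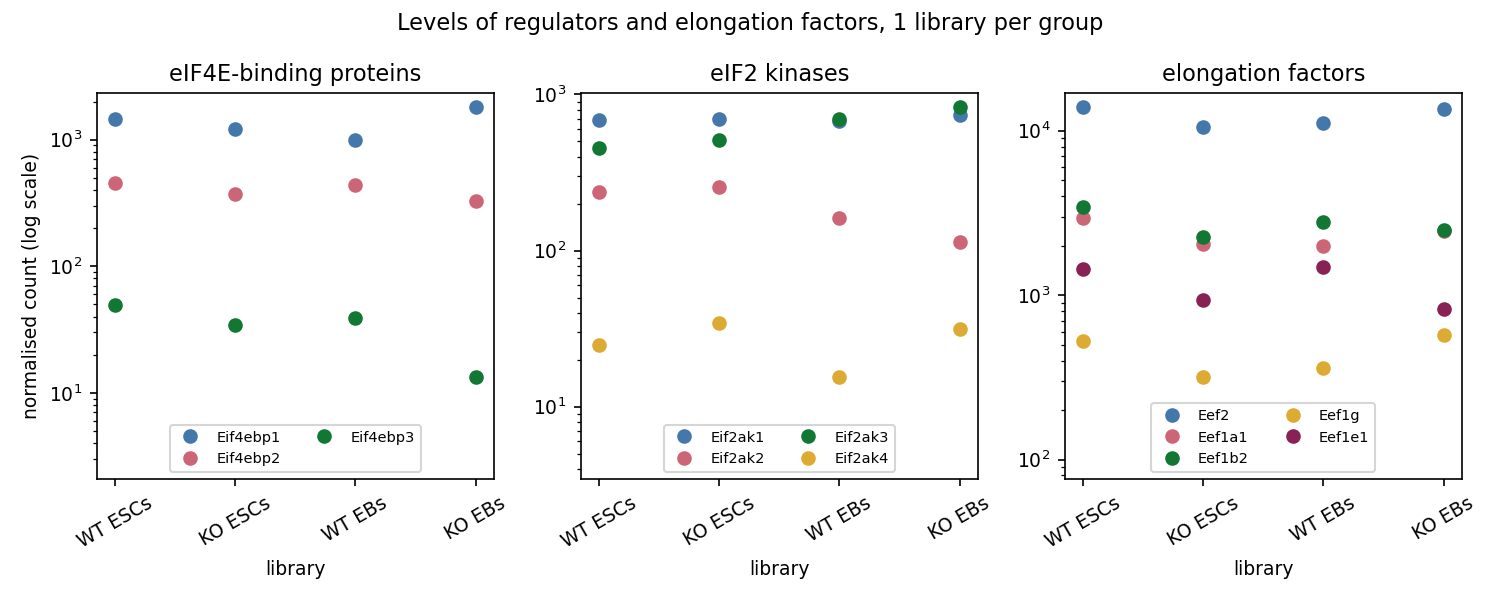
Normalised count (log axis) of the eIF4E-binding repressors, the eIF2 kinases and 5 elongation factors in each library; each point is 1 library. Eif4ebp1 is highest in KO EBs and Eif4ebp2 is not, Eif2ak3 is higher and Eif2ak2 lower in both EB libraries than in both ESC libraries, and Eef2, Eef1a1 and Eef1g are lower in KO than WT ESCs and higher in KO than WT EBs.

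The 2 comparisons of KO with WT share no library, and few members passed a limit in both. At 2-fold 1 member, Eef1d, was higher at both stages and 0 were lower, beside 5.65% and 1.54% of all genes. At 1.5-fold 1 was higher (11.5% of genes), again Eef1d, and 4 were lower (6.11% of genes): Eif3e, Eif3m, Eef1e1 and Etf1. With every library brought to the same total of gene reads only 2 members were 1.5-fold lower in KO ESCs. These were Eif3e and Eef1g. Of the 4 only Eif3e thus stayed past the limit in KO ESCs, and it was also past it in KO EBs under that scaling. For each of these 4 the WT libraries were the 2 highest and the KO libraries the 2 lowest, and Etf1 and Eef1e1 have no copied window. With genotype and stage as additive terms over all 4 libraries, which leaves 1 residual degree of freedom, a quasi-likelihood test in edgeR on the recovered reads called 0 of 9670 genes for genotype, and 0.0% in either direction, with 948 higher and 608 lower at an unadjusted p under 0.05. Among members 1 and 5 had such a p. DESeq2 called 2.6% of genes higher and 0.734% lower and 0 of the members. Of the members 0 and 3 had an unadjusted p under 0.05, beside 873 and 464 of the 9670 genes.

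From ESCs to EBs the WT libraries were close in most translation factors. The member median was −0.17 against −0.023 over all genes, with 41 of 51 below 0, beside 51.8% of genes. By 2-fold 0 members were higher and 1 lower, beside 11.0% and 8.25% of genes, and at 1.5-fold 2 were higher and 4 lower, beside 18.2% and 15.6%. Intervals lay below 1 for 27, above 1 for 4 and held 1 for 20. All 11 eIF3 subunits lay below 0 under each scaling, with a class median of −0.21, with the largest difference for Eif3c, 1.40-fold lower (1.35 to 1.46). Eif2b5 was 1.77-fold lower (1.67 to 1.89) and Eif1ad 1.73-fold lower (1.45 to 2.08). Higher in WT EBs were Eif1b, at 1.72-fold higher (1.41 to 2.08), and Eif2ak3, at 1.53-fold higher (1.35 to 1.73), and Eef1akmt1, a methyltransferase of eEF1A, was 1.40-fold higher (1.21 to 1.62), at 362, 375, 508 and 375. Eif2b4, the 1 member past 2-fold, had 44 reads in WT ESCs and 5 in WT EBs.

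Between the KO libraries the same step looked different for some of these genes. The member median was −0.087 against −0.076, and 30 of 51 lay below 0, beside 55.0% of genes. By 2-fold 1 was higher and 3 lower, beside 9.31% and 6.65%, and at 1.5-fold 3 were higher and 7 lower, beside 18.5% and 19.0%. Intervals lay below 1 for 19, above 1 for 11 and held 1 for 21. Eif1ad was 2.48-fold lower (2.11 to 2.94) in KO EBs, Eif2ak2, at 236, 256, 162 and 113, was 2.25-fold lower (1.77 to 2.91), and Eif4ebp3 2.54-fold lower (1.26 to 5.81). Of these Eif1ad alone was past 1.5-fold lower in WT EBs as well. Denr was 1.81-fold lower (1.60 to 2.07), Eif5b 1.65-fold lower (1.55 to 1.75) and Abce1 1.54-fold lower (1.44 to 1.66). Eif1, on 73 and 54 reads, was 2.07-fold higher (1.43 to 2.98). The elongation class lay above 0 (median 0.14), with Eef1g 1.78-fold higher (1.56 to 2.03) and Eef2 1.29-fold higher (1.25 to 1.32), and Eif4ebp1 was 1.49-fold higher (1.39 to 1.60).

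The 2 stage comparisons share no library either. At 2-fold 0 members were higher and 0 lower in both, beside 4.43% and 2.08% of genes. At 1.5-fold 1 was higher in both, Eif2ak3 (8.17% of genes), and 1 lower, Eif1ad (5.29% of genes). For stage edgeR called 0.207% of genes higher and 0.0517% lower and DESeq2 2.89% and 1.07%, with 0 members among the calls of either. By edgeR 1 of 51 members higher and 1 lower had an unadjusted p under 0.05, beside 726 and 414 of 9670 genes. By DESeq2 0 and 1 members had one, beside 677 and 359 genes. DESeq2 gave an adjusted p for 49 members and 9482 genes.

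**Figure D4:**
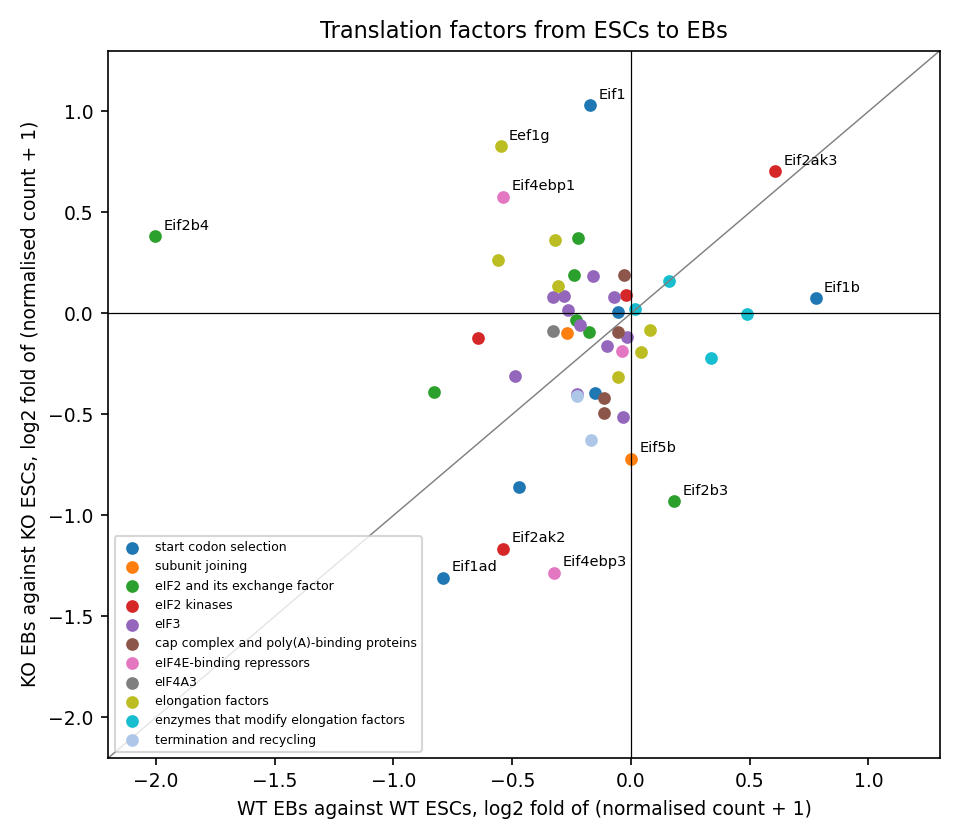
Log2 fold of EBs against ESCs in WT (horizontal axis) and KO (vertical axis) for the 51 translation factors that passed the filter, coloured by class; each point is a gene and the grey diagonal marks equal folds. Eif2ak3 lies above 0 and Eif1ad below 0 on both axes, while Eif1, Eef1g, Eif4ebp1 and Eif2b4 lie below 0 in WT and above 0 in KO.

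Paralogues differed widely in measured footprints. Of eEF1A the general gene Eef1a1 was at 2947, 2051, 1999.6 and 2459.9 and Eef1a2, the form known from muscle and neurons, at 3.89, 13.3, 9.35 and 5.97, with coding lengths of 1389 and 1392 bases and hardly any of Eef1a2 copied. Of the eIF5A pair Eif5a had no read and Eif5a2, which has 1 listed sequence, was at 97.3, 80.0, 93.5 and 64.2. Among the cap-binding genes Eif4e2, a cap-binding protein that does not join eIF4G, was at 59.2, 18.7, 6.23 and 10.4, and Eif4e3 at 5.45, 10.7, 28.1 and 20.9. Of the helicases Eif4a1 had 1, 1, 0 and 0 reads with 99.4% of its windows copied, and the exon junction helicase Eif4a3 was at 1835, 1330.4, 1462 and 1252. Eif5a, Eif4a1 and Eif4e2 are each listed with 2 or more coding sequences, and the part of this in their low counts was not tested.

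The TOP mRNAs were taken from a list of 11 members known for this motif: Eef1a1, Eef1b2, Eef1d, Eef1g, Eef2, Eif3a, Eif3e, Eif3f, Eif3h, Eif4b and Pabpc1. A RefSeq start site on GRCm38.p6 was given for 6, and the stretches are shown to compare their pyrimidine content, each from 5 bases before to 25 bases from the annotated start, with the longest run of C and T in capitals.
Eef1a1 (chr9:78481700-78481729, − strand): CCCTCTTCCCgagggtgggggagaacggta
Eif3f (chr7:108934410-108934439, + strand): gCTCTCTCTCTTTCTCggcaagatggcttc
Eef2 (chr10:81176626-81176655, + strand): cgggcgttgacgtcagcggTCTCTTCCgcc
Eif4b (chr15:102073768-102073797, + strand): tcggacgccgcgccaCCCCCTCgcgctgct
Eef1b2 (chr1:63176826-63176855, + strand): gTTCCgccggaagtagccgaggccttgcgt
Eif3a (chr19:60790669-60790698, − strand): gcggcggcgCTgccgccgcgagggaatcac
The runs were 10, 15, 8, 7, 4 and 2 bases long. Read on the gene's strand, a run of at least 8 was found in 3 of the 6, in 12 of 71 windows of the 56 members with an entry, and in 10.3% of all 32851 windows of this length. A run is a description of these letters and says nothing of where transcription starts in these cells. The 11 genes had median log2 folds of −0.40 for KO against WT ESCs and −0.15 for KO against WT EBs, and the 40 other members −0.29 and −0.21. From ESCs to EBs the medians were −0.23 in WT and −0.083 in KO for the list, and −0.17 and −0.090 for the others. Only Eif3a and Eif3f of the 11 have under 10% of their sequence copied, so the list could not be compared apart from copied genes.

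The folds were also taken by the share of copied sequence. The 10 members with over 50% copied had a median of −0.54 in KO against WT ESCs and −0.17 in KO against WT EBs, and the 540 such genes among all tested −0.40 and 0.10. The 30 members under 10% had −0.28 and −0.24, beside 0.044 and −0.074 over 7782 genes under 10% with 1 listed sequence. In KO ESCs the median of members thus lay under that of all genes both with little and with much copied sequence.

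Other parts of the translation apparatus were set beside the factors. Of 84 ribosomal protein genes 62 passed, with medians of −0.61 for KO against WT ESCs and 0.60 for KO against WT EBs, and −0.47 and 0.70 from ESCs to EBs in WT and KO. Ribosomal protein genes are known for their many processed copies in the genome. The elongation factors had medians, in the same order, of −0.52, 0.28, −0.31 and 0.14, and Eef1a1 and Eef1g among them have over 50% copied. Of 20 cytosolic tRNA synthetases 14 passed, and their medians were below 0 in all 4 comparisons, at −0.59, −0.44, −0.48 and −0.30. Etf1, Abce1 and Eef1e1 were likewise below 1 in ratio in KO at both stages.

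A list of 50 other genes of translation and its control had 40 that passed, with medians of −0.27, −0.034, −0.24 and −0.078 in the same order, of which the one for KO against WT EBs turned to 0.083 under equal totals and 0.037 under TMM. At 1.5-fold 2 of the 40 were higher and 8 lower in KO ESCs, beside 20.5% and 13.4% of all genes tested. In KO EBs 7 were higher and 5 lower, beside 24.6% and 25.1%. At the same limit 2 were higher and 7 lower from ESCs to EBs in WT, beside 18.2% and 15.6%. In KO 2 were higher and 3 lower, beside 18.5% and 19.0%. Atf4, the transcription factor translated when eIF2 is phosphorylated, was at 2462, 1435, 1169 and 1687. Ddit3 (CHOP), a gene that ATF4 induces, was at 229.6, 155, 95.1 and 258, and Ppp1r15a (GADD34), which directs a phosphatase to eIF2, at 229.6, 148, 73.3 and 152. All 3 were lower in KO than WT ESCs and higher in KO than WT EBs, as were the medians of ribosomal proteins given above. Rps6kb1, the S6 kinase below mTOR, was at 203, 168, 349 and 98.5, 3.54-fold lower (2.68 to 4.74) in KO EBs. It is listed with 2 coding sequences and had 224 reads in WT EBs and 66 in KO EBs. Nck1, an adaptor reported to act on eIF2, and Dph7, of the diphthamide modification of eEF2, ended the upper side in KO ESCs at log2 folds of 0.93 and 0.70. Dph6 of the same pathway was at −0.96 in KO EBs, and Impact, an inhibitor of GCN2, at 0.66 in WT EBs against WT ESCs. Tpt1, a TOP mRNA with every window copied, was at 100.4, 37.3, 29.6 and 213, and the part of its copies in this spread was not tested.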

How the data were processed

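Ribosome footprints were sequenced from 4 mouse libraries, WT and Mettl3-KO ESCs and EBs, 1 of each, grouped by the titles in the labels; 0 columns of the table stayed unmatched. The submitters' processing notes name the build mm10 and the tools HTSeq 0.6.0, TopHat2 2.0.10, CASAVA 1.8.2, DESeq and Bowtie. For settings, annotation version and strand, nothing is given in the sources used here. Each deposited value is the signal of a RefSeq coding sequence, a read count that the authors divided by 1 factor per library. Within a tolerance of 0.01, 100% of values were whole multiples of the smallest step of their library, so reads were recovered; 1 read is worth 0.778, 0.533, 1.56 and 1.49 in WT ESCs, KO ESCs, WT EBs and KO EBs. Reads without a unique place were 55.7%, 48.4%, 51.7% and 53.1% of the table and ambiguous ones 8.71%, 10.5%, 9.74% and 8.62%, left out here with the other entries that name no gene.

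Of 27442 sequences 27083 matched a RefSeq symbol on GRCm38.p6 (the assembly of mm10), and those of a gene were summed. Genes with a mean of at least 25 were compared as log2 of the ratio of (value + 1), with limits of 2-fold and 1.5-fold. Ratios of reads have 95% exact binomial (Clopper-Pearson) intervals, which cover counting error only, and PCR copies are not independent molecules. A gene at 0 in a library could have up to 3 reads. Each 28-base window of a coding sequence was searched on both strands of the chromosomes for copies. Tests on recovered reads, first tried on simulated counts, used edgeR 4.0.16 and DESeq2 1.42.0 in R 4.3.3, with Benjamini-Hochberg adjustment and a threshold of 0.05. The rest used python 3.11.15, pandas 2.3.3 and scipy 1.17.1. Members and lists were chosen with earlier results of these data known. Named members were those past 2-fold in a comparison, the highest and lowest of each class in a comparison, the paralogue sets and the TOP list, with Mettl3 and the 2 highest and 2 lowest other translation genes in each comparison; Denr, Eif1a, Eif2b2, Eif2b5, Eif2s1, Eif3i, Eif3m and the Y-linked and X-linked genes were named after their values were seen. Alternatives changed the pseudocount, filter, scaling, copied share and limit.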

Additional observations from a re-analysis of the deposited data

Results flagged for a closer look

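For 4 members the KO minus WT difference had opposite signs in ESCs and EBs and differed by at least 1 on the log2 scale, which 14.3% of all genes tested also did. With 1 library per group the difference was not tested. It was 2.38 for Eif2b4 (−0.38 in ESCs and 2.01 in EBs, from 44, 49, 5 and 23 reads in WT ESCs, KO ESCs, WT EBs and KO EBs), the delta subunit of the eIF2B exchange factor. For Eef1g, a subunit of the eEF1 exchange complex with 95.9% of its windows copied, it was 1.38 (−0.72 and 0.66). Eif1 gave 1.20 (−0.054 and 1.15) with all of its windows copied. Eif4ebp1, the repressor of eIF4E, gave 1.12 (−0.26 and 0.86), with 19.3% of its windows copied.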

How the results depend on the processing

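Medians of the members kept their sign in all 4 comparisons under each alternative run, and no result turned its direction past a limit; counts past 2-fold, which are small, moved. In the order higher and lower, a limit of 1.5-fold gave 2 and 8 for KO against WT ESCs, 6 and 14 for KO against WT EBs, 2 and 4 for WT EBs against ESCs, and 3 and 7 for KO EBs against ESCs, with 4 members lower in KO at both stages and 1 higher and 1 lower in EBs of both genotypes. Those counts used the deposited scaling, and with equal totals of gene reads 2 members were 1.5-fold lower in KO ESCs. Shares of all genes past a limit are given above for the deposited scaling, values plus 1 and the main filter only. Counts of members under other settings thus have no share of all genes beside them. At the 2-fold limit with a pseudocount of 5, 0 were higher in KO EBs than KO ESCs. With every gene that had a read, 2 were higher and 2 lower in KO ESCs than WT ESCs, and 2 higher and 4 lower in WT EBs than WT ESCs. With a mean of at least 100, 0 were higher in KO ESCs, 0 higher and 1 lower in KO EBs against WT EBs, 0 lower in WT EBs against WT ESCs and 0 higher in KO EBs against KO ESCs. With under 10% copied, 0, 1 and 0 were higher in KO ESCs, in KO against WT EBs and in KO EBs against KO ESCs. With members of 1 coding sequence only, chosen after seeing the data, 0 were higher in KO ESCs, 1 higher and 1 lower in KO against WT EBs and 0 lower in WT EBs against WT ESCs. By edgeR and by DESeq2, 0 members were higher in KO over both stages. No paired analysis was possible because each group holds 1 library and the labels carry no replicate number. For the same reason no library could be left out.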

Other observations

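Initiation factor genes on the sex chromosomes were outside the autosomal set. Eif2s3y, the Y-linked gene for the gamma subunit of eIF2, was at 275 and 435 in WT and KO ESCs and at 4.68 and 4.48 in WT and KO EBs, from 353, 815, 3 and 3 reads, so it was 58.8-fold lower (95% counting interval 19.9 to 286) in WT EBs than WT ESCs and 97.1-fold lower (33.1 to 472) in KO EBs than KO ESCs. Its X-linked counterpart Eif2s3x was at 100.4, 70.4, 90.4 and 77.6 with 95.1% of its windows copied, and Eif1ax, the X-linked gene for eIF1A, at 1083, 782, 819.8 and 799. Of other Y-linked genes Ddx3y was at 105, 619, 9.35 and 49.3, Uty at 60.7, 208, 0.00 and 13.4 and Kdm5d at 1.56, 211, 1.56 and 0.00. Eif2s3y, Ddx3y and Uty were each lower in the EB than in the ESC library of the same genotype and, in ESCs, higher in the KO than in the WT library. Kdm5d was higher in KO than WT ESCs as well, on 396 against 2 reads, but had 1 read in WT EBs beside 2 in WT ESCs, too few to compare. The part of the cell lines in this was not tested.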
